A study of Mus musculus with 48 samples.

Results

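Mouse testis was compared with mouse ovary across the autosomal genes of an oligonucleotide array. The comparison used the 12 arrays whose titles name testis or ovary, of 48 arrays in the study, and they held 3 testis and 3 ovary RNA samples, of 24 RNA samples in 8 groups. Each RNA sample had been put on 2 arrays. Genes were kept where a probe set with 1 symbol matched a gene on chromosomes 1 to 19, which left 11957 autosomal genes of 12369 genes on the array, and 8888 of them were bright enough to be tested. The other groups were liver, kidney and hypothalamus of both sexes and enter below only as a setting for the gonads.

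Both gonad groups were described as healthy mouse tissue. Tissue of 10 animals went into each RNA sample, which a supplier sold as RNA selected for polyA tails, although another field of the labels calls the molecule total RNA. The sources used here name no strain, age, cycle stage, genotype or treatment. Nor do the labels say whether the 3 RNA samples of a gonad came from separate pools, so the p-values below measure the spread between these samples, which may be technical. In a whole organ, fewer cells of a type and less RNA per cell cannot be told apart.

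The adult testis makes sperm in long tubules, where germ cells pass through mitosis, meiosis and the reshaping of round spermatids into sperm, resting on Sertoli cells, while Leydig cells between the tubules make androgen. The adult ovary holds few germ cells. Most of its mass is granulosa and theca cells, corpora lutea that make progesterone, and a vascular stroma rich in matrix. Spermatids pack their DNA with transition proteins and protamines in place of histones and use many gene copies of their own for metabolism, motility and protein folding.

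Intensities are the deposited values brought to the same trimmed mean on every array, with the mean taken over both arrays of an RNA sample. Differences are testis minus ovary in log2 units after a pseudocount of 48.3 was added, which shrinks the differences of dim genes. A gene was called at a Benjamini-Hochberg adjusted p under 0.05 in limma, adjusted over all 14957 tested probe sets. Counts are given with arrays on this common scale and with every RNA sample centred on its median, or as genes called the same way on both scales, because the choice moves the balance of calls. The 2 arrays of each gonad RNA sample correlated at 0.9656 to 0.9893 over all probe sets on the log2 scale.

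Each tested marker that defines a gonad or its germ cells was higher in the gonad it names. Prm1, a protamine gene, had intensities of 21931, 20772 and 17431 in testis RNA samples 1 to 3, against 113, 180.4 and 95.8 in ovary RNA samples 1 to 3. Zp3, a gene of the egg coat, had 95.3, 115 and 83 in testis, against 1234, 766 and 1089 in ovary. Ptgfr, the prostaglandin receptor of corpora lutea, had 112, 92.2 and 97.3 in testis, against 2659.5, 4092 and 2697 in ovary. All 3 genes separated the groups with no overlap. Sox9, a Sertoli cell factor, was too dim to test in either gonad, with 78.5, 70.8 and 105 in testis and 66.1, 88 and 84.7 in ovary. Insl3, Foxl2, Cyp19a1 and Lhcgr were not analysed here.

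The ovary samples also carried markers of neighbouring tissue. Ovgp1, the secreted glycoprotein of the oviduct, had 241, 229 and 132 in testis, against 10072, 7737 and 8208 in ovary. Adipoq, the fat cell hormone adiponectin, had 1161, 768 and 381 in testis, against 4822, 6512 and 5012 in ovary. The 13 fat markers on the array summed to between 2807 and 4661 in testis samples and to between 34710 and 52170 in ovary samples. The part of oviduct and fat in the ovary results below was not tested. In testis sample 2 the epididymis gene Gpx5 had 448, while the other testis samples had 85.8 and 43.7 and the ovary samples 76.9, 97.1 and 102, and none of the 7 epididymis genes on the array was bright enough to be tested. Of 14 pancreas genes 6 were tested, and testis sample 1 was the brightest testis sample for each of those 6.

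More autosomal genes were lower than higher in testis on the common scale, and the order turned round with median centring. On the common scale 2458 genes were higher in testis (27.7% of those tested) and 3828 were lower (43.1%). With median centring 3398 were higher (38.2%) and 2771 were lower (31.2%). Genes higher in testis thus made up 39.1% of the calls on the common scale and 55.1% with median centring. The median difference over all 8888 genes was -0.26 on the common scale and 0.11 with median centring.

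The genes whose call hung on the scale had mostly small differences. Median centring adds 0.37 to every difference, so rises could only grow, and falls could only shrink or turn. All 2458 genes called higher in testis on the common scale stayed so with median centring. Of the 3828 called lower 2771 stayed, 1057 lost the call and 0 turned round. A rise called on both scales is thus simply a rise called on the common scale. A fall called on both scales is one called with median centring. The 1057 had a median difference of -0.64 on the common scale. Another 940 genes joined those higher in testis, with a median difference of 0.26 on the common scale. Centring on the 75th percentile gave 50.8% of calls higher in testis and quantile normalization 48.6%. Groups did not overlap at 2663 genes higher in testis (30.0%) and at 4023 lower (45.3%) on the common scale, and at 3661 higher and 2961 lower with median centring. Under all 4 scalings 2365 genes were higher in testis and 2757 were lower.

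**Figure D1:**
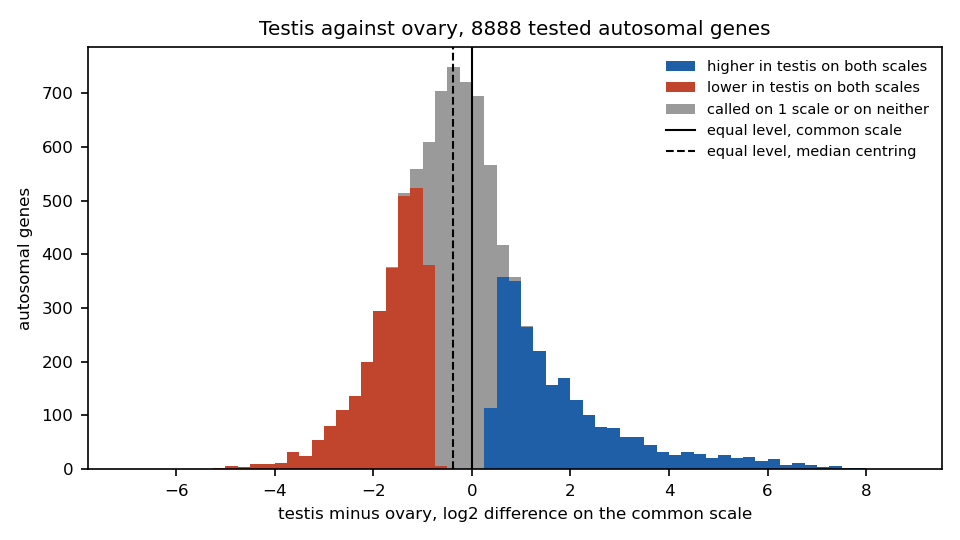
Histogram of testis minus ovary log2 differences on the common scale for the 8888 tested autosomal genes, coloured by call. The solid line marks equal levels on the common scale and the dashed line marks equal levels with median centring, 0.37 lower. The right tail, of genes higher in testis, is the longer one.

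The shift between the scales came from the array medians. The median log2 intensity was 7.79 ± 0.04 in testis and 8.16 ± 0.02 in ovary (SD, n = 3 each), a difference of -0.37, with an exact two-sided permutation p of 0.1, the smallest that 3 against 3 samples can give. The intensity was also more unevenly spread in testis. The brightest 1000 probe sets held 43.2% ± 1.60 of all intensity in testis and 36.3% ± 0.29 in ovary (SD, n = 3 each), again with an exact permutation p of 0.1. The groups did not overlap in either measure.

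Lower calls outnumbered higher ones on each of the 19 autosomes on the common scale, while with median centring higher calls outnumbered lower ones on 17 of 19, all but chromosomes 3 (171 against 178) and 18 (80 against 81). On the common scale the share of tested genes higher in testis ran between 23.6% on chromosome 18 and 31.0% on chromosome 17, and the share lower between 38.7% on chromosome 15 and 47.6% on chromosome 18. The median difference was below 0 on every autosome on the common scale, between -0.40 and -0.16, and with median centring it was between -0.02 and 0.21.

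Large differences ran towards testis on both scales. Among called genes that differed at least 16-fold, 248 were higher in testis and 33 lower on the common scale, and 297 were higher and 20 lower with median centring. From 8-fold to 16-fold, 61.6% of calls on the common scale and 80.1% with median centring were higher in testis. Between 2-fold and 4-fold the shares were 31.8% on the common scale and 48.6% with median centring. Some of this rests on how genes entered the test. The brightness limit was the 40th percentile of each RNA sample, 109 to 127 in testis and 155 to 160 in ovary. All 3 testis samples and no ovary sample were above it at 774 genes, which favours a rise without fixing it. At 511 genes it was the other way round, and these had to be lower in testis on the common scale. Among the 6445 genes above the limit in all 6 samples, 1604 were higher in testis and 2683 lower on the common scale, against 2342 higher and 1807 lower with median centring.

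**Figure D2:**
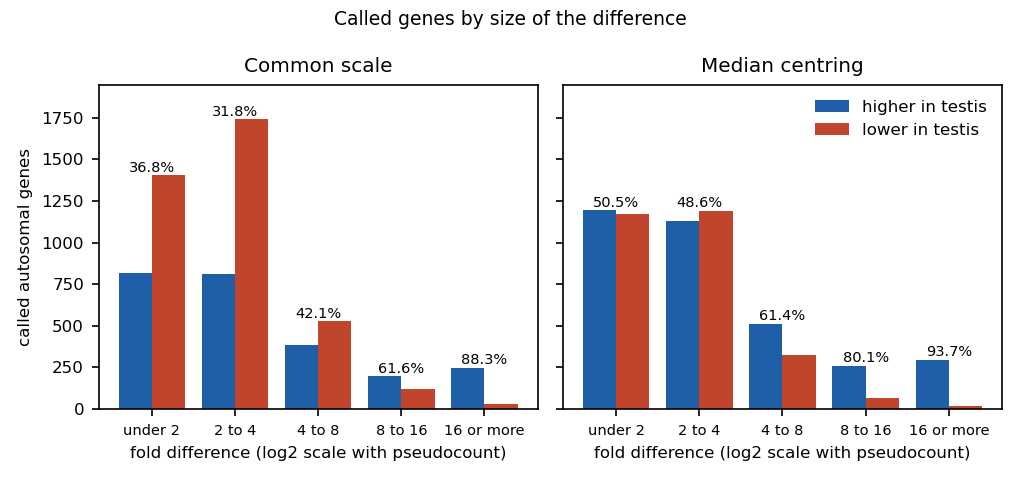
Number of called autosomal genes higher (blue) and lower (red) in testis by the size of the fold difference, on the common scale at left and with median centring at right. The percentage above each pair is the share higher in testis, which reaches 88.3% and 93.7% in the 16-fold class.

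Genes with the largest differences were ranked only among those called on both scales whose groups did not overlap. Tnp2, Tnp1 and Ldhc headed the genes higher in testis. Tnp2, a transition protein that replaces histones in elongating spermatids, had 16893, 17538 and 13589 in testis, against 4.45, 4.95 and 3.55 in ovary. Tnp1, its companion, had 14089, 14689 and 10384 in testis, against 1.60, 1.80 and 3.65 in ovary. Ldhc, the lactate dehydrogenase of sperm, had 22286, 21609 and 19158 in testis, against 42.1, 32.8 and 52.1 in ovary. Every testis sample stood far above every ovary sample for each of them. The log2 differences were 8.24 ± 0.16 for Tnp2, 8.0 ± 0.17 for Tnp1 and 7.87 ± 0.16 for Ldhc (standard errors), with adjusted p of 5.31e-09, 5.57e-09 and 5.31e-09. Their ovary levels lay near or far under the pseudocount of 48.3, which therefore sets the size and order of these differences.

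Among the rest of the 12 genes with the largest rise, Fabp9, a fatty acid-binding protein of the sperm head, had 14095, 13477 and 7235 in testis, against 23.3, 9.90 and 4.45 in ovary. Odf1, of the outer dense fibres of the tail, had 17363, 16104 and 9325 in testis, against 67.1, 32.1 and 43.1 in ovary. Spz1, a transcription factor of spermatogenesis, had 10090.1, 11346 and 5719 in testis, against 9.30, 8.75 and 7.40 in ovary. In these 3 genes testis sample 3 was the lowest of the testis samples, without approaching the ovary samples. Smcp, of the sperm mitochondrial sheath, Hils1, a spermatid linker histone, Spata4, Prm2, Crisp2, of the acrosome and tail, and Pdcl2 differed by between 7.15 and 7.53. In liver, kidney and hypothalamus the group means of these 12 genes stayed at or under 139.

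At the other end, Akr1c18, the enzyme that inactivates progesterone in the corpus luteum, had 123, 36.3 and 44.8 in testis, against 8749, 13383 and 9218 in ovary. Hsd17b1, which turns oestrone into oestradiol in granulosa cells, had 27.2, 10.5 and 16.2 in testis, against 2348, 1852 and 2505 in ovary. Krt19, an epithelial keratin, had 18, 15.7 and 8.45 in testis, against 2358, 1650.4 and 1624 in ovary. A lack of overlap was part of the rule that picked these genes. Ovary sample 2 was the highest for Akr1c18 but not for the other genes given here. The differences were -6.55 ± 0.28 for Akr1c18, -5.10 ± 0.18 for Hsd17b1 and -4.92 ± 0.19 for Krt19, with adjusted p of 1.04e-07, 3.38e-08 and 4.99e-08.

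The other genes with the largest falls in testis were Plet1 (-6.18), the oviduct gene Ovgp1 (-5.15), Dcpp1 (-4.97), Epdr1 (-4.96), Bcat1 (-4.81), of branched-chain amino acid breakdown, the secreted glutathione peroxidase Gpx3 (-4.77), the epoxide hydrolase Ephx2 (-4.76), S100a4 (-4.70) and the growth factor binding protein Igfbp5 (-4.57). Some were also bright outside the gonads. Gpx3 averaged 16181 in male kidney and Ephx2 averaged 4811 in male liver.

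**Figure D3:**
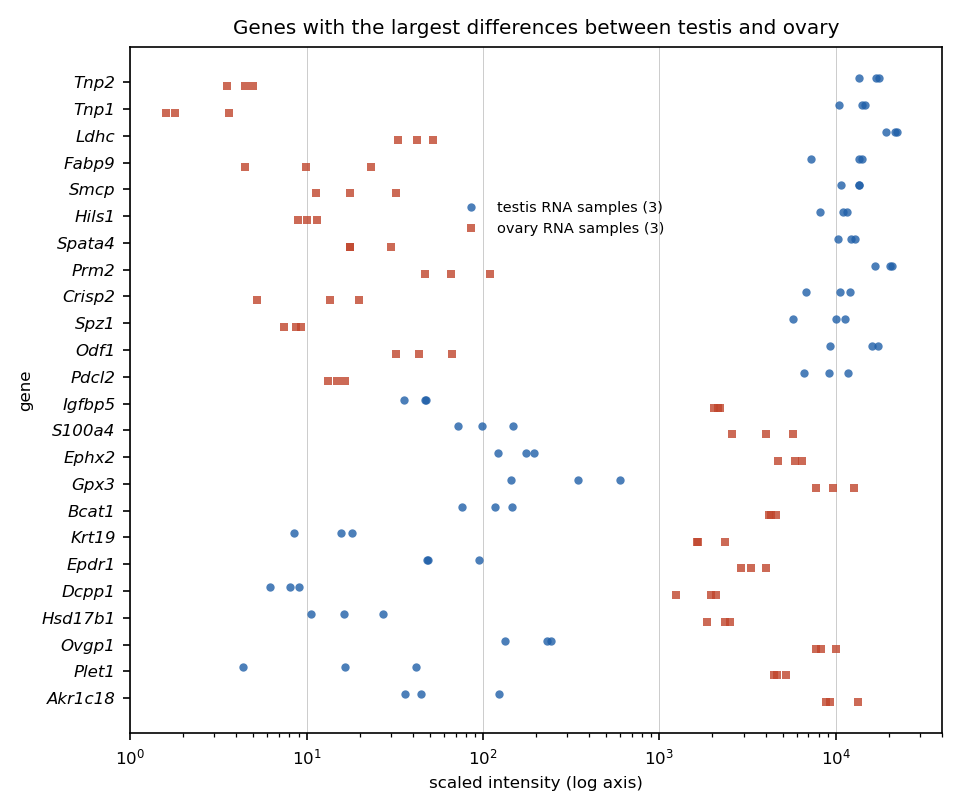
Scaled intensity on a log axis in each testis (blue circles) and ovary (red squares) RNA sample for the 12 genes with the largest rise and the 12 with the largest fall in testis. The 24 genes were picked among those whose groups do not overlap.

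The 7 lists of germ cell genes held 146 different genes on the array, of which 138 were tested. On both scales 131 rose in testis and 0 fell, beside 27.7% and 31.2% of all tested autosomal genes. Of the 138, 96 were above the brightness limit only in testis, so the filter itself favoured a rise. By list such genes were 8 of 8 tested chromatin, 20 of 27 tail, 19 of 23 acrosome and 18 of 25 meiosis genes. They were also 17 of 24 isozymes, 11 of 25 regulators and kinases and 8 of 12 RNA pathway genes, and some genes stand in several lists. Among the 31 that were above the limit in all 6 samples, 26 rose on both scales.

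Genes of spermatid chromatin showed the largest shift of any list, with a median difference of 7.15 over 8 tested genes, of 9 on the array, beside -0.26 over all tested genes. All 8 rose on both scales, but all 8 were above the brightness limit only in testis, so the filter itself favoured a rise. Prm2, the second protamine, had 20902, 20229 and 16741 in testis, against 46.7, 109.6 and 65.9 in ovary. Phf7, a chromatin reader of round spermatids, had 13429, 12230.1 and 12577 in testis, against 140.2, 114 and 137 in ovary. The groups were far apart for both genes. The linker histone gene H1f6 was too dim to test, at 88.7, 62.7 and 80.6 in testis and 66.4, 24.5 and 57.5 in ovary, while its relative H1f2 was lower in testis, at 688 ± 182, against 3871 ± 197 in ovary (SD, n = 3 each).

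All 27 genes of the sperm tail list on the array were tested and rose on both scales, with a median difference of 5.0. Gsg1, a germ cell gene counted in this list, had 12911, 12628 and 10425 in testis, against 65.1, 71.7 and 61.2 in ovary. Odf2, of the outer dense fibres and the centrosome, had 7053, 6744 and 6776 in testis, against 64.7, 61.2 and 57 in ovary. Ropn1l, of the fibrous sheath and radial spokes, had 12722, 13625 and 11245 in testis, against 87.6, 121 and 100.5 in ovary. Samples of a gonad lay close together for these genes, but list members were named by low p, which favours that. Over the whole list the median level was 107%, 109% and 87.0% of the testis mean in testis samples 1, 2 and 3. The smallest rise in the list was that of Ift20, of ciliary transport, at 0.58 ± 0.20, which was not called without testis sample 1 or 2 or ovary sample 1 or 2.

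The acrosome and fertilization list gave 23 rises among 23 tested genes, of 24 on the array, with a median of 4.94. Gk2, a glycerol kinase of spermatids, had 6547, 6745 and 7065 in testis, against 3.25, 4.0 and 4.90 in ovary. Adam2, the fertilin beta subunit of the sperm surface, had 4971, 5224 and 5497 in testis, against 61.1, 55.7 and 49.7 in ovary. Acr, the acrosomal protease acrosin, had 3778, 3787 and 4101 in testis, against 162, 217 and 179.7 in ovary. The lowest testis value among the 3 genes was 3778, and the highest ovary value was 217. The smallest rise in the list was that of Vdac3, a mitochondrial pore also made elsewhere, at 1.26 ± 0.15.

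Meiosis genes had a smaller median difference, 2.61 over 25 tested genes, of 28 on the array, and 23 rose on the common scale and 25 with median centring. Spo11, which cuts DNA to start recombination, had 1542, 1766 and 1186 in testis, against 73.4, 90.3 and 90.2 in ovary. Stag3, a meiotic cohesin, had 2747, 2900.0 and 5280.0 in testis, against 62.8, 82.9 and 46.9 in ovary. Sycp3, of the synaptonemal complex, had 1824, 2436 and 1168 in testis, against 36.6, 47.2 and 34 in ovary. Here testis sample 3 was the highest for Stag3 and the lowest for Sycp3 and Spo11. Trip13 (0.32) and Mlh3 (0.05) were not called on the common scale.

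The germ cell RNA pathway had a median difference of 3.37, and 11 of 12 tested genes rose on both scales. Ddx4, the RNA helicase Vasa of germ cells of both sexes, had 2043, 2446 and 1875 in testis, against 35.9, 38.4 and 57 in ovary. Piwil2, which binds piRNAs, had 962, 1198 and 1627 in testis, against 53.8, 44 and 56.7 in ovary. Ybx2, which coats stored messages, had 11895, 12335 and 9999 in testis, against 202, 149 and 221 in ovary. The exception was Cpeb1, a translation factor of oocytes, which differed by -0.44 and was called lower on the common scale. It was not called with median centring, with 4 times the pseudocount, in a fit blocked by replicate number, or without testis sample 1 or any 1 of the ovary samples.

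Of 25 tested spermatid regulators and kinases, 21 rose on both scales, with a median of 3.46. Tssk6, a kinase of spermatids, had 8766, 8717 and 8464 in testis, against 52.8, 44.3 and 27.1 in ovary. Fhl5, a partner of the factor CREM, had 7807, 5996 and 4717 in testis, against 49.2, 54.6 and 36.8 in ovary. Crem itself had 2 tested probe sets, and neither was called higher on the common scale. The brighter had 201, 176 and 171 in testis, against 305, 307 and 266 in ovary, a difference of -0.56 that was called on the common scale (adjusted p 0.00718) and not with median centring (0.261).

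Gene copies used by germ cells all rose while their widely expressed relatives went several ways. The 24 tested isozymes of testis, of 25 on the array, rose on both scales with a median of 5.28. Their 26 widely expressed relatives had a median difference of -0.79, with 5 higher and 15 lower in testis on the common scale. With median centring 8 were higher and 13 lower, and 5 were higher without ovary sample 1 or 3. Of all tested genes 27.7% were higher and 43.1% lower on the common scale, and 38.2% higher and 31.2% lower with median centring. Of 24 pairs listed, 15 had both genes on the array, and the germ cell gene rose on both scales in 14 of these, H1f6 being the untested one. The relative fell on both scales in 5 pairs and rose on both in 4.

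Capza3, the actin capping subunit of spermatids, averaged 5058 ± 1377 in testis and 44.4 ± 6.25 in ovary (SD, n = 3 each). Its relative Capza2 averaged 691 ± 118 in testis and 2587 ± 90.3 in ovary, a difference of -1.84 ± 0.16 with an adjusted p of 7.44e-06. The pair thus moved in opposite directions. Cox6b2 and Cox6b1, of cytochrome c oxidase, did likewise, with differences of 4.90 and -1.31. So did Hspa1l and Hspa8, heat shock proteins (6.12 and -1.31), and the proteasome subunits Psma8 and Psma7 (4.47 and -0.87).

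Ldha, the common lactate dehydrogenase, rose along with Ldhc, at 10667 ± 1299.9 in testis and 3910.2 ± 638 in ovary, a difference of 1.44 ± 0.18 (adjusted p 6.59e-05). Dnajb6 (0.71), Ppp3ca (1.10) and Hspa4 (1.37) also rose on both scales beside Dnajb3, Ppp3cc and Hspa4l. For Hspa4 the brightest probe set rose, and its other 2 fell. Actb, cytoplasmic beta actin, averaged 11141 ± 994 in testis and 11139 ± 1048 in ovary, and was called on neither scale, while Actl7b, an actin-related protein of spermatids, averaged 10944 ± 2256 in testis and 307 ± 31.8 in ovary.

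**Figure D4:**
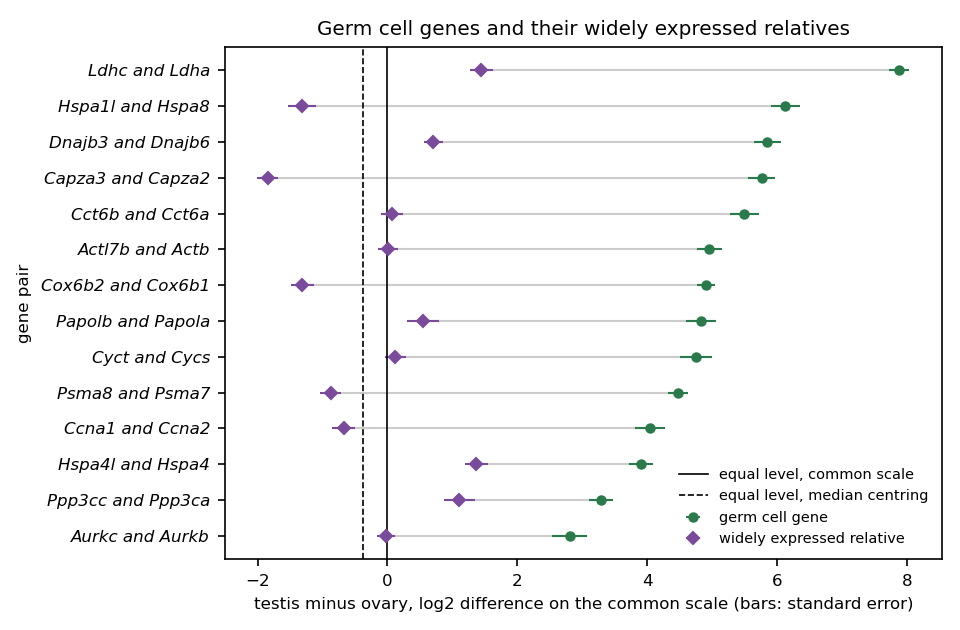
Testis minus ovary log2 difference of 14 germ cell genes (green circles) and their widely expressed relatives (purple diamonds), with standard errors, on the common scale. Each green circle lies to the right of its relative, and the relatives fall on both sides of the lines of equal level.

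Sertoli cell genes went both ways. Of 18 tested, 6 rose and 7 fell on the common scale and 8 rose and 6 fell with median centring, and the 6 of 18 called in each direction on both scales are near the 27.7% and 31.2% of all tested genes. Aard rose, with 3414, 4024 and 4150.3 in testis, against 448, 417 and 450.1 in ovary. Cldn11, of the barrier between Sertoli cells, rose, with 489, 591 and 797 in testis, against 61, 57.1 and 71.5 in ovary. Dmrt1, a factor that keeps Sertoli cells male, had 218, 262 and 593 in testis, against 32.6, 43.3 and 33 in ovary. The 6 that fell were Hsd17b1, Amh, Inhbb, Gata4, Nr5a1 and Wt1. Amh, the anti-Müllerian hormone made by immature Sertoli cells and by granulosa cells, had 39.5, 44.6 and 76.6 in testis, against 1116, 958 and 1479.7 in ovary, and Inhbb, an inhibin subunit, had 512, 570.4 and 1023 in testis, against 5348, 4023 and 5484 in ovary.

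Of 14 tested Leydig cell genes 4 rose and 9 fell on the common scale and 5 rose and 8 fell with median centring. Over all tested genes 27.7% rose and 43.1% fell on the common scale, and 38.2% rose and 31.2% fell with median centring. The share of Leydig genes that rose is near that of all tested genes on both scales. Many Leydig genes serve steroid synthesis in either gonad. Hsd17b3, which makes testosterone, had 653, 633 and 1330.0 in testis, against 43.1, 44.2 and 38 in ovary. Star, which carries cholesterol into mitochondria, had 390.5, 431 and 634 in testis, against 4476, 7226 and 5215 in ovary. Cyp11a1, the first enzyme of steroid synthesis, had 1147, 846 and 2039 in testis, against 9117, 10580.1 and 10611 in ovary. The gonads were separated in opposite directions by the last step to testosterone and by the early steps. Cyp17a1, needed for androgen, averaged 5938 ± 2436 in testis and 4184 ± 855 in ovary, which was not called on the common scale (0.45, adjusted p 0.167) and was called higher with median centring (0.82, 0.0276). Testis sample 3 was the highest testis sample for Hsd17b3, Star, Cyp11a1 and Dmrt1.

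Granulosa cell genes were lower in testis. Of 27 tested, 24 fell and 2 rose on the common scale and 23 fell and 2 rose with median centring, with a median of -2.53. Over all tested genes 43.1% fell on the common scale and 31.2% with median centring. The filter let 12 of the 27 through by ovary alone, so these had to differ, and with the filter run again on 5 samples 12, 13 and 12 fell without ovary sample 1, 2 and 3. Nr5a2, a nuclear receptor needed for ovulation, had 124, 62.8 and 65.5 in testis, against 2952, 2312 and 2925 in ovary. Fst, the activin-binding protein follistatin, had 113, 109 and 113 in testis, against 2097, 1583 and 1702 in ovary. Esr2, oestrogen receptor beta, had 39.5, 32.1 and 21.8 in testis, against 612, 702 and 837 in ovary. The exceptions, named after their values were seen, were Gatm (1.11), of creatine synthesis, and Amhr2 (0.89), the receptor for anti-Müllerian hormone.

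Luteal and theca genes fell in 22 of 27 cases on both scales, beside 31.2% of all tested genes. On both scales 0 rose, beside 27.7%, and the median was -2.03. Of the 27, 2 had passed the filter by ovary alone. Sfrp4, a secreted Wnt antagonist, had 582, 432 and 341 in testis, against 11817, 12265 and 9579 in ovary. Hsd17b7, of oestrogen and cholesterol synthesis, had 288, 200.1 and 241 in testis, against 3109.6, 3411 and 3555 in ovary. Samples of each gonad lay well apart from those of the other. The sterol synthesis genes Cyp51 (-0.22) and Sqle (-0.07) were called on neither scale.

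Oocyte genes had a median of -1.47, with 15 of 23 tested genes lower and 3 higher in testis on both scales. The shares of all tested genes were 31.2% lower and 27.7% higher. Of the 23, 6 passed the filter by ovary alone and 3 by testis alone. Bcl2l10, a survival factor of oocytes, had 59.5, 37.5 and 52 in testis, against 935, 691 and 799 in ovary. Gdf9, the growth factor by which oocytes act on granulosa cells, had 364, 302 and 508 in testis, against 1644, 1229.6 and 1704 in ovary. Ovary sample 2 was the lowest ovary sample for Zp2, Zp3 and Gdf9. Of the 3 that rose, Ddx4 and Dazl mark germ cells of both sexes, and Dazl had 1875, 2383 and 1782 in testis, against 102, 12.8 and 34.6 in ovary. The third was Jag1, which was not called without ovary sample 3 and for which a dimmer probe set fell.

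Signal genes of the gonads leaned the same way. Of 63 tested growth factors, receptors and their antagonists 45 fell and 4 rose on both scales, with a median of -1.65, and 13 had passed the filter by ovary alone. Over all tested genes 31.2% fell and 27.7% rose on both scales. Wnt4, which favours the ovarian fate, had 27.9, 24.2 and 22.8 in testis, against 676, 557 and 756 in ovary. Crabp1 (1.33), Smad6 (1.37), Amhr2 and Fstl3 (0.67) were the 4 that rose. Of 29 tested gonadal transcription factors 22 fell and 2 rose on both scales, and 8 had passed by ovary alone. Those that rose were Dmrt1 and Id4 (1.27).

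Genes of the cells that build and feed the organ were lower in testis too. Of 48 matrix genes tested 44 fell and 1 rose on both scales, with a median of -2.25, and 7 had passed the filter by ovary alone. Over all tested genes 31.2% fell and 27.7% rose on both scales. Serpinh1, the collagen chaperone, had 387, 311 and 399 in testis, against 5738, 5092 and 5958 in ovary. Lum, the proteoglycan lumican, had 271, 163 and 126 in testis, against 4029, 3863 and 3703 in ovary. The gene that rose was Timp2, by its brightest probe set and not without testis sample 1 or any 1 of the ovary samples, while its 4 other tested probe sets had lower levels in testis. Smooth muscle genes fell in 15 of 16 cases on both scales, with a median of -2.36, and 3 had passed the filter by ovary alone. With the filter run again on 5 samples, 11 fell on the common scale without ovary sample 1, 2 or 3. Tagln had 290.5, 259 and 338 in testis, against 4871, 4274 and 3835 in ovary.

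Endothelial genes fell in 17 of 20 cases on both scales, beside 31.2% of all tested genes, with a median of -1.99. Of the 20, 5 had passed the filter by ovary alone. With the filter run again on 5 samples, 14 fell on the common scale without ovary sample 1, 2 or 3. Plvap, of fenestrated vessels, had 25.1, 27.5 and 26.5 in testis, against 418, 472 and 432 in ovary. Surface and oviduct epithelium genes fell in 16 of 21 cases and 1 rose, with a median of -2.08, and 5 had passed the filter by ovary alone. With the filter run again on 5 samples, 11, 11 and 12 fell on the common scale without ovary sample 1, 2 and 3. Krt18 had 74.1, 64.6 and 55.4 in testis, against 2358, 1491 and 1549 in ovary. Foxj1, of motile cilia, had 676, 618 and 1320.3 in testis, against 932, 1189.6 and 1323 in ovary, with overlapping groups and no call. All 11 tested fat genes fell on both scales, with a median of -3.11, and 2 had passed the filter by ovary alone. Lpl, lipoprotein lipase, had 211, 228 and 159 in testis, against 4763, 5547 and 4227 in ovary.

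Immune genes were divided. Of 26 tested, 3 rose and 10 fell on the common scale and 5 rose and 4 fell with median centring. Over all tested genes 27.7% rose and 43.1% fell on the common scale, and 38.2% rose and 31.2% fell with median centring. The immune median was -0.31 on the common scale, beside -0.26 over all tested genes. It was 0.07 with median centring, beside 0.11, so the scale set its sign. With median centring 3 rose without ovary sample 1 or 3, and 2 fell without ovary sample 1 or testis sample 2, against 8 without testis sample 3. Lgals3, a lectin of macrophages and epithelia, fell, with 117, 127 and 153 in testis, against 1502, 1358 and 1237 in ovary. Aif1, a macrophage marker, went the other way, with 5781, 6283 and 2009 in testis, against 152, 152 and 116 in ovary. The macrophage genes C1qb (0.04) and Adgre1 (-0.26) were not called on the common scale, and with median centring C1qb was called higher in testis. Cd3e (0.74), of T cells, and H2-Ab1 (0.57), of antigen presentation, were the others that rose, and H2-Ab1 was not called without testis sample 2 or ovary sample 1 or 3.

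**Figure D5:**
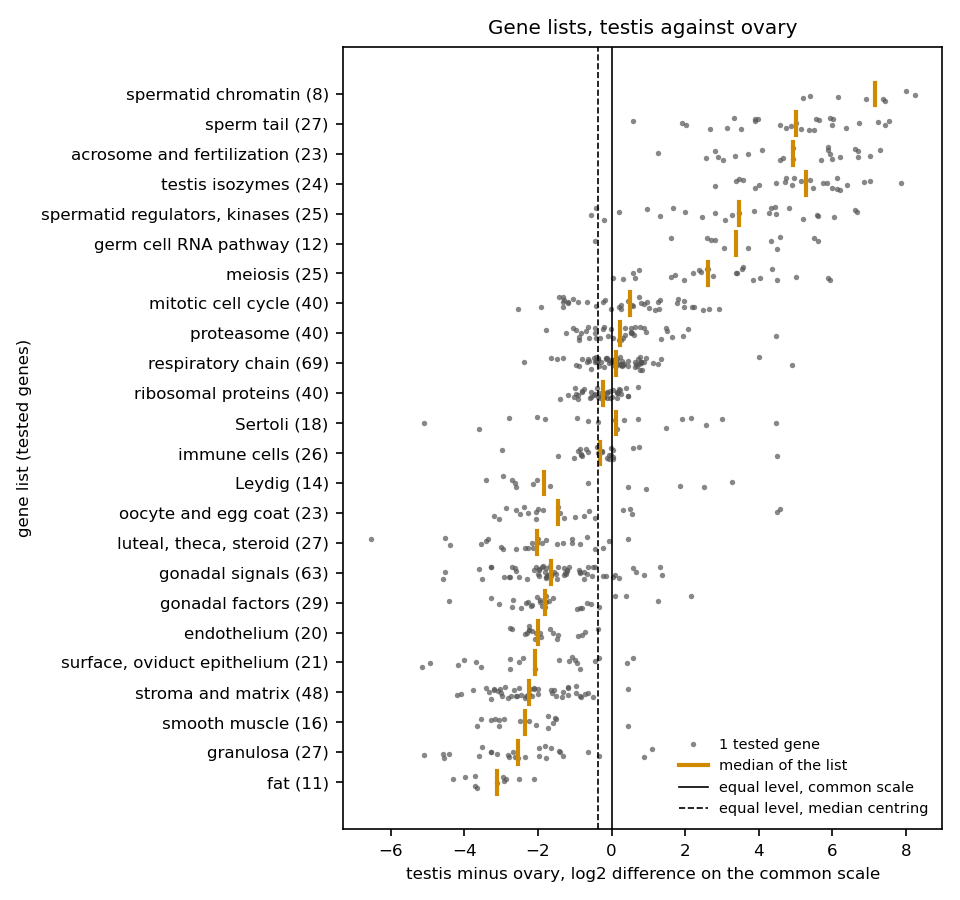
Testis minus ovary log2 difference on the common scale for each tested gene (points) of 24 gene lists, with the median of each list as an orange bar and the number of tested genes in brackets. The medians of the 7 germ cell lists lie to the right of both lines of equal level and those of ovarian, stromal and vascular lists to the left. The medians of ribosomal proteins and of immune cells lie between the lines.

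Genes used by every cell had small medians on the common scale, and the scale set the sign of the median for ribosomal proteins. Ribosomal protein genes had a median of -0.23 on the common scale, with 2 higher and 15 lower in testis among 40 tested, and 0.14 with median centring, with 12 higher and 7 lower. Without testis sample 3, 5 were higher on the common scale and 12 lower with median centring, while without ovary sample 1 with median centring 4 were lower. Without testis sample 1, testis sample 2 or ovary sample 3, 1 was higher on the common scale. Respiratory chain genes had a median of 0.11 on the common scale, with 19 higher and 13 lower of 69, and 37 higher and 5 lower with median centring. The lower calls came to 21 on the common scale and 11 with median centring without testis sample 3, and to 8 on the common scale without ovary sample 3. Proteasome genes had a median of 0.24, with 17 higher and 8 lower of 40, and 22 higher and 6 lower with median centring. Of all tested genes 27.7% were higher and 43.1% lower on the common scale, and 38.2% higher and 31.2% lower with median centring. The share of respiratory chain genes higher on the common scale was near that of all tested genes, while the share lower was smaller. With median centring their share higher was larger and their share lower smaller than among all tested genes. Proteasome genes had a larger share higher and a smaller share lower than all tested genes on each scale. Within the proteasome list Psma8, the subunit of spermatocytes, had the largest rise (4.47 ± 0.16), followed by Psmc3 (2.09).

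Cell cycle genes split within the list. Of 40 tested, 20 rose and 12 fell on the common scale and 24 rose and 9 fell with median centring. Over all tested genes 27.7% rose and 43.1% fell on the common scale, and 38.2% rose and 31.2% fell with median centring. On both scales the share that rose was above that of all tested genes and the share that fell was below it. Ccnb2, a mitotic cyclin, had 3591, 3144 and 3815 in testis, against 655, 388 and 559 in ovary. Cdkn1b, the inhibitor p27, had 108, 77.7 and 90.5 in testis, against 734, 809 and 712 in ovary. Bub1 (2.47), Plk4 (1.98) and Cks2 (2.18) rose, and the G1 regulators Ccnd1 (-1.31), Ccnd2 (-1.32) and Cdk4 (-1.93) fell. These 3 were named after their values were seen.

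Of 40 tested motor and tubulin genes, 19 rose and 10 fell on the common scale and 22 rose and 6 fell with median centring, beside 27.7% higher and 43.1% lower, and 38.2% higher and 31.2% lower, of all tested genes. Tuba8, an alpha tubulin, had 4864, 3454 and 4528 in testis, against 184, 165 and 124 in ovary. Kif9, a kinesin of motile cilia, had 3455, 3008 and 3753 in testis, against 234, 263 and 265 in ovary. Klc1, a kinesin light chain, had 80.8, 91.6 and 95.7 in testis, against 656, 704 and 749.7 in ovary. Dynll2 had probe sets that disagreed, the brightest rising (3.49) and the other falling. Over all autosomal genes with several tested probe sets, 181 of 3053 had probe sets called in opposite directions on both scales.

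Testis sample 3 differed from the other testis samples in a graded way. Across acrosome genes its median level was 69.9% of the testis mean, against 103% and 117% in samples 1 and 2, and across spermatid chromatin genes it was 82.2%, against 108% and 109%. Sertoli genes were at 118% and Leydig genes at 122% in the same sample. Over all 2458 genes higher in testis on both scales it stood at 92.7%. Without it, all 8 chromatin genes, all 23 acrosome genes and 26 of 27 tail genes were still called higher on the common scale, as were 7 Sertoli and 4 Leydig genes, against 6 and 4 with it. These counts keep the probe sets that passed with all 6 samples. With the filter run again without it, 0 chromatin, 4 acrosome and 7 tail genes were called higher, since genes bright only in testis then have 2 samples and cannot pass.

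Genes higher in testis were more often dim in the other organs than genes lower in testis, most of all at large differences. Of the 2458 genes higher in testis on both scales, 402 (16.4%) were under the brightness limit in all 18 samples of liver, kidney and hypothalamus, beside 72 of the 2771 lower in testis (2.6%) and 507 of all 8888 tested (5.7%). With a difference of at least 4-fold the shares were 295 of 827 (35.7%) for genes higher in testis and 46 of 682 (6.74%) for genes lower in testis. Testis was above the other organs for 95.5% of the genes at least 4-fold higher in it, beside 34.0% of all tested genes. Ovary was above them for 60% of the genes at least 4-fold lower in testis, beside 34.5% of all tested genes. Both gonads helped to choose these classes, while the other organs did not.

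Upstream sequences were read for 7184 of the 8888 tested genes, from 250 bases before to 50 after the start in RefSeq for build GRCm38.p6. The cyclic AMP response element, TGACGTCA on either strand, is the site of CREB and CREM, and it stood in 83 of 2031 windows of genes higher in testis on both scales (4.09%), in 66 of 2191 of genes lower in testis (3.01%) and in 239 of all 7184 (3.33%). At a difference of at least 4-fold the shares were 3.86% for genes higher in testis and 2.14% for genes lower. Of the named genes 4 held the full element upstream of their start, shown here in capitals because they let its place be compared.
Spag4, chr2:156065113-156065212, + strand: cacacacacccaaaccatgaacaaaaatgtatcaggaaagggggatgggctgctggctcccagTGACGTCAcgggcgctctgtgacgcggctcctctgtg
Spag6l, chr16:16829364-16829463, - strand: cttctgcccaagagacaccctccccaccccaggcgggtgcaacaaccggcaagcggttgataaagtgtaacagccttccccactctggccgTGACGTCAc
Kif17, chr4:138262145-138262244, + strand: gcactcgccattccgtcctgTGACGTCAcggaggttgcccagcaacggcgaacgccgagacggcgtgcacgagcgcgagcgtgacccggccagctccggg
Rad51c, chr11:87404507-87404606, - strand: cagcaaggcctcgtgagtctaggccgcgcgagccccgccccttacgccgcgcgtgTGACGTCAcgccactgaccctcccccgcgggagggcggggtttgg

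Spag4, a nuclear membrane protein of spermatids, had 5503, 5641 and 2306 in testis, against 23.1, 14.6 and 13.7 in ovary. Spag6l, of the central pair of the tail, had 3143, 2711 and 5446 in testis, against 173, 222 and 192 in ovary. Kif17, a kinesin that carries the CREM partner Fhl5 in spermatids, had 2444, 2629 and 2893 in testis, against 397, 500.2 and 435 in ovary. Rad51c, of recombination repair, had 351, 416 and 483 in testis, against 88.7, 86.2 and 147 in ovary. The first base of the element lay 37, 9, 86 and 45 bases before the start in these 4 genes, in the order of the lines above.

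Other motifs were looked up after the results were known, 7 in all with the response element, on both strands. GGCAGTT, a core of MYB sites, was in 5.65% of windows of genes at least 4-fold higher in testis, 2.33% of those at least 4-fold lower and 3.35% of all. A strict 14-letter X-box, read by RFX factors of ciliary genes, was in 7 of 673 windows (1.04%) of the first class, 0 of 514 of the second and 20 of all 7184 (0.278%). TCAAGGTCA, an SF-1 site, was in 1.04%, 0.195% and 0.292% of the same 3 sets (7, 1 and 21 windows). AGATAAG, read by zinc finger factors such as Gata4, was in 2.23%, 2.33% and 1.7%. The core promoter box TATAAA was in 7.58%, 8.75% and 7.53%. A 10-letter SRF site was in only 1 of 673, 1 of 514 and 2 of 7184 windows (0.149%, 0.195% and 0.0278%). A match is only the presence of the letters, and no test was made. Rfx2, an RFX factor of spermatids, was itself higher in testis, with 798, 1132 and 859.6, against 15, 20.2 and 19.8 in ovary. Windows of 3 of these 7 genes with the X-box are shown with the motif in capitals, because its inner letters differ between them.
Morn4, chr19:42086371-42086421, - strand: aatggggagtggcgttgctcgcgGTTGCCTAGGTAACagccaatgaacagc
Cfap298, chr16:90935001-90935060, - strand: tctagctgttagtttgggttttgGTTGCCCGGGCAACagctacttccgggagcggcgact
Chn1, chr2:73775374-73775433, - strand: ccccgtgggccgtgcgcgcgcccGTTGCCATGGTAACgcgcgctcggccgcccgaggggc

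Cfap298, a protein of motile cilia, had 2067, 1978 and 2049 in testis, against 338, 370.3 and 234 in ovary. Morn4 had 1048, 988 and 925 in testis, against 233, 180.1 and 158 in ovary. Chn1, a signalling protein of the Rac pathway, had 2161, 2035 and 1252 in testis, against 138, 142 and 109 in ovary. The X-box began 188, 28 and 64 bases before the start in Cfap298, Morn4 and Chn1. CG dinucleotides had a median of 17 per window in both 4-fold classes, against 21 in all windows.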

How the data were processed

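The deposited values were intensities of 48 one-colour oligonucleotide arrays, 1 table for the study, and as deposited by the authors their trimmed means lay between 500.11 and 500.23. The software that made them is not given in the sources used here, and detection calls were not used. Array columns were assigned by sample title, and 0 further columns were left unused. Of 22626 probe sets without controls, the annotation of the platform gave 20380 a single symbol, 691 more than 1 and 1555 no symbol. Symbols of 20351 were updated by gene number.

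Arrays were brought to the same 2% trimmed mean and log2-transformed after adding the 20th percentile of all values, and arrays of 1 RNA sample were averaged. Probe sets above the 40th percentile in at least 3 of 6 samples were tested with limma 3.58.1 in R 4.3.3 (Python 3.11.15 for summaries), with the 6 gonad RNA samples alone and no covariate. The brightest tested probe set stood for a gene. The number of arrays limits the precision. The fit was tested on simulated data.

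Named genes were the 12 largest differences in each direction called on both scales without overlap, up to 6 members of each list with the lowest p, listed pairs, defining markers and, for sequences, named genes with a full response element. Others are exceptions or examples picked after their values were seen. Members and lists were chosen with earlier results of these data known. Replicate numbers were not used to pair the gonads. Same-numbered samples deviated together with weak correlations of 0.0422, 0.146 and 0.0425. The highest correlation between different numbers was 0.0325, and whether the numbers pair the samples was not tested. Alternatives changed the scaling, pseudocount, filter, arrays, samples, block, fit and probe set rule. Protein sequences were not used here.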

Additional observations from a re-analysis of the deposited data

How the results depend on the processing

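The 24 genes with the largest differences kept their direction and call under every alternative in which they were tested. The median difference over autosomal genes changed sign with median centring (0.11) and with centring on the 75th percentile (0.018), and moved to -0.049 with quantile normalization, -0.19 with 4 times the pseudocount and -0.14 with no filter. Without each replicate in turn it stayed between -0.29 and -0.24 on the common scale. Without each replicate in turn it lay between 0.069 and 0.14 with median centring, where the genes called lower in testis ran between 2358 and 3121 (2507, 2430 and 2358 without ovary replicate 1, 2 and 3) and those called higher between 3049 and 3525. Removals kept the probe sets tested with all 6 samples, a choice made after seeing the data, as were the removals with median centring and those with the filter run again on 5 samples. With the filter run again the median was -0.41, -0.39 and -0.41 without testis replicate 1, 2 and 3 and -0.17, -0.17 and -0.15 without ovary replicate 1, 2 and 3, as by construction genes bright only in the gonad with 2 samples were no longer tested, and the genes called higher ran between 1672 and 2293. On the common scale without each replicate in turn, 2271 to 2633 genes were called higher and 3410 to 4129 lower. Replicate numbers were not used as pairs in the main fit. With the replicate number as a block 2465 genes were called higher and 3825 lower in testis, and the median stayed at -0.26.

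Single genes turned round in 7 cases. Averaging probe sets in place of the brightest gave -1.0 for Hspa4, -0.47 for Jag1 and -0.70 for Timp2, genes whose probe sets disagree. Des, a muscle filament gene at -1.60 on the common scale, came to 0.65 with quantile normalization. With median centring without each ovary replicate in turn it came to between 0.61 and 0.70. Median centring moves a probe set by only about 0.37, and the brightest tested probe set was chosen anew in each fit. These values of Des are therefore those of another probe set and not a reversal of the same one. The low intensity of many genes in the gonad where they are dim limits how exactly their difference is known.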
